A study of Mus with 2 samples.

Results

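Macrophages of mouse tissues are told apart from freshly recruited monocytes by proteins on their surface or in their secretions, and 10 genes for such proteins are described here in bone marrow derived macrophages (BMDMs) given the FXR agonist GW4064. The genes were Adgre1, Cd163, Lyve1, Folr2, Siglec1, Vsig4, Cd5l, Ly6c1, Trem2 and Gpnmb. They were chosen by name, and all 10 were found on the array through the RefSeq accession of their probes, as 13 of the 26575 probes that carried a gene name and 10 of 20140 genes. The BMDMs came from male C57BL6/J mice, 10 weeks old by the study's methods (C57BL6 in the labels), whose marrow was grown for 7 d in 10 ng/mL of M-CSF. IL-4 at 10 ng/mL, which drives macrophages toward the M2 state, was then present for 24 hr in both cultures, with 10 µM GW4064 in one and its solvent DMSO in the other. Each culture was read on 1 array, so there was no replicate and no test, and a difference below is a difference between these arrays. The title, source and treatment labels of the second sample name GW4064, whereas its free-text label repeats that of the DMSO sample. The sources used here did not say whether the cultures came from the same mouse or from pooled mice. BMDMs differentiate in a dish and lack the tissue signals that set the profile of resident macrophages.

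Resident macrophages settle in a tissue, often before birth, and take on a local set of receptors for clearing cells, hemoglobin, complement-coated particles or hyaluronan. Monocytes that enter the tissue later start with Ly6C on their surface and lose it as they gain F4/80. A further state with TREM2 and GPNMB is known from macrophages that handle much lipid. Adgre1 encodes F4/80, Cd163 the receptor for hemoglobin bound to haptoglobin, Lyve1 a hyaluronan receptor shared with lymphatic endothelium, Folr2 folate receptor beta and Siglec1 the sialic acid-binding lectin CD169. Vsig4 encodes the complement receptor CRIg of Kupffer cells, and Cd5l a secreted protein of the scavenger receptor cysteine-rich family. Ly6c1 encodes a Ly6C protein, Trem2 a lipid-sensing receptor that signals through the adaptor DAP12, and Gpnmb a glycoprotein of endosomes and lysosomes.

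The arrays were Agilent 1-colour mouse arrays, on which RNA labelled with Cy3 is read as the brightness of a spot. A value called signal is the intensity in the authors' files after background subtraction. A log2 difference is GW4064 minus DMSO after each array was shifted so that its 75th percentile (1209 with DMSO, 1265 with GW4064) lay at 0. Of 39200 probes with an unmarked spot on both arrays, 57.4% with DMSO and 58.5% with GW4064 were well above background by the scanner software's own mark, and the lowest signals so marked were 15.7 and 15.1. The 153 negative control spots had median signals of 4.05 and 3.75. Signals of different probes depend on the probe and are not compared with each other. All 13 probes of these genes were printed once, and none of their spots was marked as uneven. To give each difference a yardstick, the SD of the log2 difference was taken over the copies of probes printed 10 times, as the median of the 30 such probes nearest in level. It covers the spot and the position on the slide, not the culture or the labelling. Copies marked as uneven or as outliers among copies were left out of it. A probe printed once has no copies to be an outlier among, so this SD can be too small for these probes. In RNA from a whole culture, fewer cells of a type and less RNA per cell cannot be told apart.

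Siglec1 was higher with GW4064 than with DMSO, at least 2.62-fold as the mean of its probes and 1.62-fold on the probe measured on both arrays, while Lyve1 was at least 2.56-fold and Ly6c1 1.54-fold lower. Adgre1, Folr2, Cd5l, Trem2 and Gpnmb were measured on both arrays and each differed by less than 1.5-fold. Neither array measured Cd163 or Vsig4. Of the 8 genes measured, 2 differed 2-fold or more, Siglec1 upward and Lyve1 downward, against 4.75% of all 13529 genes measured, 2.04% upward and 2.71% downward. Both rest on a probe that was well above background on 1 array alone, and such a probe enters only because it differs, so this count is a description only. Among single probes 3 of the 11 measured passed 2-fold, 1 upward and 2 downward, against 4.92% of all probes measured, 2.15% upward and 2.78% downward. At 1.5-fold Ly6c1 joined the lower genes, which made 1 gene higher and 2 lower, against 9.95% of all genes, 4.39% upward and 5.56% downward. Over the 8 genes 3 were higher and 5 lower, with a median log2 difference of -0.16 beside 0.0068 over all genes.

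**Figure D1:**
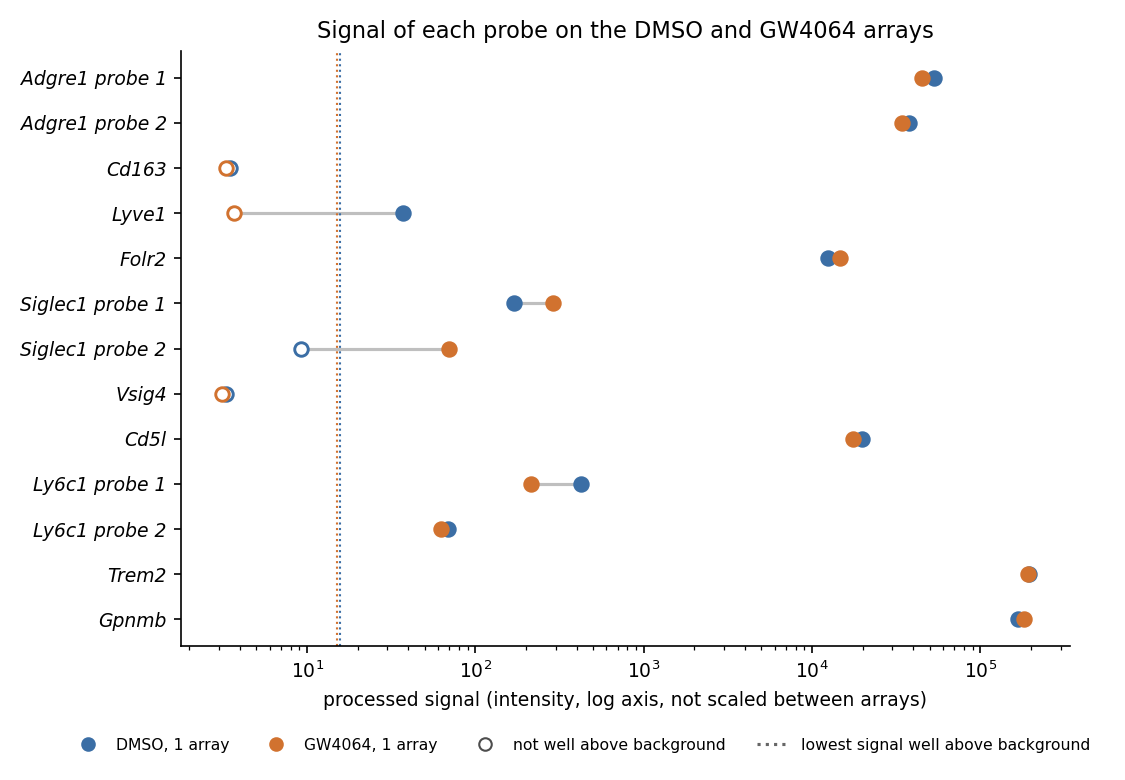
Processed signal (log axis) of the 13 probes on the DMSO array (blue) and the GW4064 array (orange), with open circles for spots not well above background and dotted lines at the lowest signal well above background, 15.7 and 15.1. Cd163 and Vsig4 lie left of both lines on both arrays, Lyve1 crosses to the left with GW4064, and Siglec1 probe 2 crosses to the right.

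Adgre1 is the gene for the protein most used to name a mouse macrophage, and its signal was slightly lower with GW4064 on both probes. Both probes were matched to NM_010130. The first read 53331 with DMSO and 45282 with GW4064, a log2 difference of -0.30. The second read 37536 and 34175, a log2 difference of -0.20. Both exceeded the SD over copies at that level, 0.069, and the mean of the probes was 1.19-fold lower. The spot of the first probe had 2 spots within 300 µm that differed 8-fold or more between the arrays, which counts as a damaged area of the slide, and without it the second probe alone gave -0.20. The difference was negative in all 12 settings of the processing, between -0.43 and -0.20.

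Among the receptors of resident macrophages, the hemoglobin receptor gene Cd163 gave no signal above background. Its probe, matched to NM_053094, read 3.47 with DMSO and 3.29 with GW4064, below the median of the negative controls on both arrays. The complement receptor gene Vsig4 (NM_177789) read 3.32 and 3.11, also below that median. For both genes no fold is given, since neither array measured them. A value under the limit of the array does not show that the RNA was absent from the cells.

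Folr2, the folate receptor of many resident and M2 macrophages, was matched to NM_008035 and read 12365 with DMSO and 14566 with GW4064. Its log2 difference of 0.17, or 1.13-fold, was above the SD over copies of 0.066. The direction depended on the scaling, since centring on the spike-in RNA, which took the median of the probes measured on both arrays from 0.012 to -0.16, left Folr2 at -0.0031. Folr1, its paralog, had 0.38 on each of its 2 probes, and the folate carriers Slc19a1 and Slc46a1 had 0.08 and 0.20. Around the Folr2 spot the other spots in nearby rows and columns had a median log2 difference of -0.16, the other way from Folr2.

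Siglec1, whose protein binds sialic acids on other cells, was higher with GW4064 on both of its probes, matched to NM_011426. The first probe, well above background on both arrays, read 169.8 with DMSO and 288.3 with GW4064 and differed by 0.70 on the log2 scale, or 1.62-fold. The SD over copies at this level was 0.10. The second probe passed the background mark with GW4064 alone, with signals of 9.14 for DMSO and 69.8 for GW4064, and was at least 4.24-fold higher. The probes agreed in direction and not in size, and their mean, with the second at its bound, was at least 1.39 on the log2 scale. Under other scalings, background corrections and spot filters the first probe lay between 0.44 and 0.73 and the second between 0.85 and 2.14, with both lowest values after the normexp background correction, which draws dim signals together. No spot within 300 µm of either differed 8-fold, and the other spots in the 5 rows and columns on each side had median log2 differences of 0.0063 and 0.061. A dim spot can be bright by itself. On the GW4064 array 13 of 1510 spots of dim probes printed 10 times, or 0.861%, read 69.8 or more.

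Lyve1, the hyaluronan receptor gene of perivascular macrophages and lymphatic vessels, was near the limit of the array and lower with GW4064. Its probe (NM_053247) read 37.0 with DMSO, well above background, and 3.69 with GW4064, which was not, so that it was at least 2.56-fold lower. The spot itself, before background subtraction, had a median of 70.0 with DMSO and 31.0 with GW4064. At this level the SD over copies was 0.51 on the log2 scale, and the bound of -1.36 became -0.66 after normexp. The gene has 1 probe and 1 spot. On the DMSO array 42 of 1470 spots of dim probes printed 10 times, or 2.86%, read as bright as the Lyve1 spot. The other spots in the 5 rows and columns on each side had a median log2 difference of -0.20, in the direction of Lyve1, and its part was not tested.

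**Figure D2:**
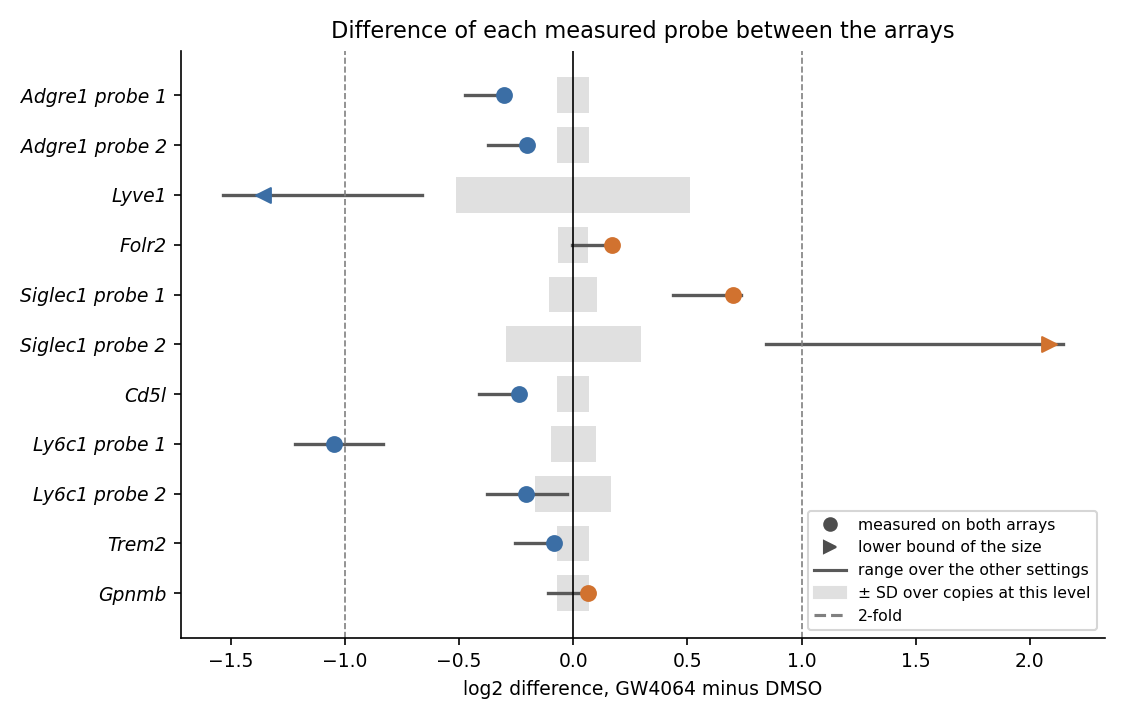
Log2 difference (GW4064 minus DMSO) of the 11 measured probes, with arrowheads for differences that are lower bounds, grey bars for ± SD over copies at that level, lines for the range over other scalings, background corrections and spot filters, and dashed lines at 2-fold. Siglec1 lies to the right on both probes (0.70 and at least 2.08), Lyve1 (-1.36) and Ly6c1 probe 1 (-1.05) lie to the left, and Trem2 and Gpnmb lie at the edge of their grey bars or inside them.

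Cd5l encodes a protein that macrophages secrete and that is known as a target of the oxysterol receptor LXR alpha. Its probe (NM_009690) read 19733 with DMSO and 17510 with GW4064, a log2 difference of -0.24 against an SD over copies of 0.070. It was negative in all 12 settings, between -0.41 and -0.24. Nr1h3, the gene for LXR alpha, read 7539 and 5697 on one probe and 3663 and 2763 on the other, and both gave a log2 difference of -0.47. Nr1h2, the gene for LXR beta, had -0.08. The part of either receptor gene in the Cd5l difference was not tested. Cd163 and Vsig4, set beside Cd5l as genes of Kupffer cells, gave no difference to compare.

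Ly6c1 stood for the monocyte side of the group, and its probes disagreed in size. Both were matched to NM_010741. The first read 422.2 with DMSO and 214.1 with GW4064, a log2 difference of -1.05, or 2.06-fold lower, beside an SD over copies of 0.099. The second read 69.0 and 62.7, a log2 difference of -0.20 beside an SD of 0.17. The spot of the second lay in a damaged area, with 4 spots within 300 µm that differed 8-fold or more, and the first had none. Around the first the other spots of those rows and columns had a median of -0.14. The mean of the probes was -0.62, and when damaged areas were left out the first probe alone gave -1.05 and took Ly6c1 past 2-fold. Ly6c1 and its neighbour Ly6c2 are close copies, no probe carried the name Ly6c2, and which of them each probe read was not tested. Of the other Ly6 genes in the list of paralogs, Ly6a, known as Sca-1, read 111.8 and 52.7 and was 2.22-fold lower, with -0.77 on the log2 scale where it was nearest to 0 over the settings. Ly6d had -0.88, Ly6e had -0.21, Ly6i had -0.14 from signals of 18.6 and 17.7, and Ly6k was not well above background. The spots of Ly6a and Ly6d lay in damaged areas.

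Trem2 and Gpnmb, the markers of the lipid-handling state, differed least of the 8 measured genes in the main setting, though not with the loess or spike-in centring, where Folr2 was nearer to 0 than Trem2. Trem2 (NM_031254) read 194857 with DMSO and 192644 with GW4064, a log2 difference of -0.08. Gpnmb (NM_053110) read 166607 and 182461, a log2 difference of 0.07. The SD over copies at both levels was 0.070, so that Gpnmb differed by less than it and Trem2 by little more. The other spots in nearby rows and columns had median log2 differences of -0.15 around Trem2 and -0.14 around Gpnmb. These medians were larger in size than the SD and than the difference of either gene, and their part was not tested. Gpnmb turned negative in 3 settings, the loess, the quantile normalization and the centring on spike-in RNA, where it was -0.11. No spot on either array was marked as saturated.

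Set against all probes of the same level, 7 of the 9 probes measured on both arrays lay outside the middle 50% and 3 lay outside the middle 95%. The 3 were Ly6c1 probe 1, Siglec1 probe 1 and Adgre1 probe 1, whose -0.30 was just past the limit of -0.29 at its level. Ly6c1 probe 1 was past a limit of -0.78 and Siglec1 probe 1 past 0.60.

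**Figure D3:**
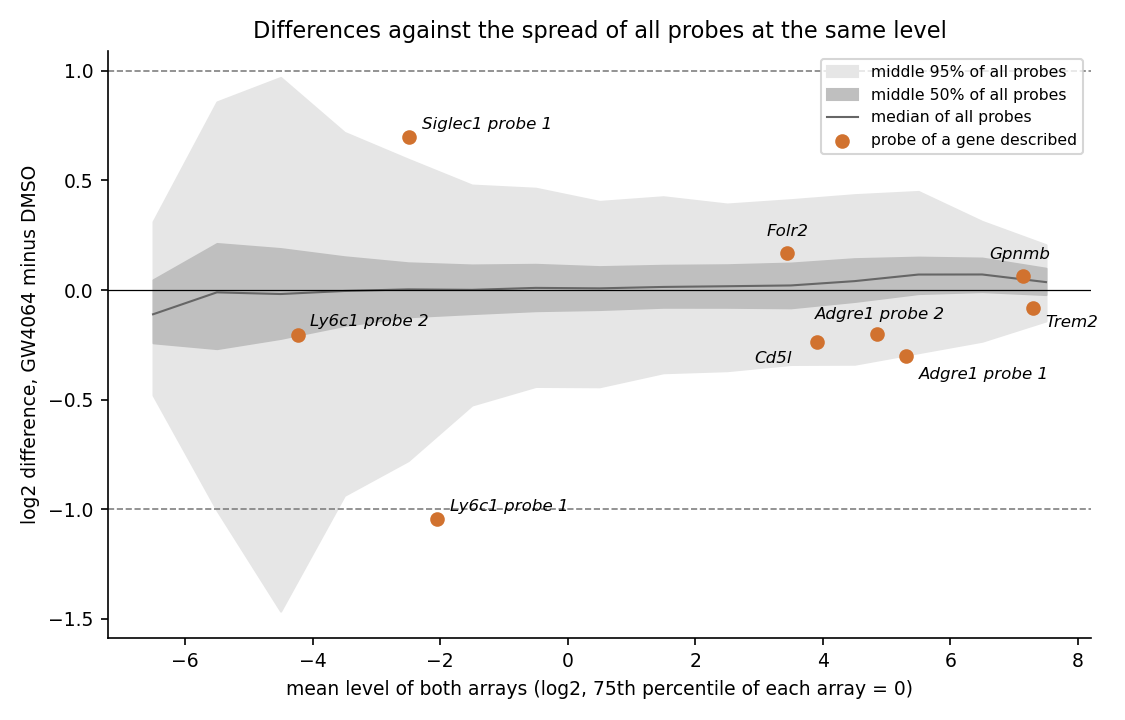
Log2 difference against the mean level of both arrays (log2) for the 9 probes measured on both arrays, over bands that hold the middle 50% and 95% of all probes in steps of 1 log2 unit. The band is wider at low levels, and Ly6c1 probe 1 and Siglec1 probe 1 lie outside it while Ly6c1 probe 2, at a lower level, lies inside.

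The genes that work with these markers were read as a list of 28 adaptors, ligands, proteases and transcription factors, all of which were measured. None differed 2-fold or more, 13 were higher and 15 lower, and the median log2 difference was -0.02. Tyrobp, the gene for DAP12, through which TREM2 signals, read 209471 with DMSO and 218097 with GW4064, a log2 difference of -0.01, from a spot in a damaged area. The kinase gene Syk downstream of it had 0.04. Adam10, a protease that sheds TREM2 from the surface, had 0.59, and Adam17, which also sheds CD163, had 0.30 and -0.04 on its probes. Of the MiT/TFE factors, which are known to drive Gpnmb, Tfeb read 1386 with DMSO and 727.5 with GW4064 and was 1.99-fold lower, Mitf had -0.24 and -0.22, Tfec had 0.02 and the Tfe3 probes had 0.05 and -0.13. The macrophage factor Maf had 0.01. Irf7, an interferon-induced factor, as Siglec1 is an interferon-induced gene, had 0.51. The highest difference in this list was 0.86 for Gpr84, a fatty acid receptor gene whose spot lay in a damaged area. What part genes of this list had in the differences of the markers was not tested.

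Among 24 paralogs of these genes 18 were measured, 8 higher and 10 lower with a median of -0.02. Adgre5, the gene for CD97 and a relative of F4/80, went the other way from Adgre1, from a signal of 10034 to 32708, 3.11-fold higher. Stab2, a hyaluronan receptor gene like Lyve1, read 1179 and 2545 and had a log2 difference of 1.04 (0.87 with spike-in centring), while Cd44, the hyaluronan receptor gene closest to Lyve1, had between -0.33 and 0.07 on its 4 probes. Of the other sialic acid-binding lectin genes, Siglece had 0.11, Siglecf 0.10 and Siglech -0.04, Cd33 was 1.64-fold lower from 148.8 to 94.9, and Siglecg was not well above background. The other Siglech probe was not well above background either. Trem1 had -0.10 and Treml4 had 0.11. Treml2 had 0.43 from a dim spot (23.0 and 32.4) in a damaged area, and -0.013 at its lowest over the settings. The other Treml2 probe was not well above background. Pmel, the relative of Gpnmb, had 0.17.

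A list of 34 further genes of resident macrophages had 33 genes on the array and 24 measured, of which 13 were higher and 11 lower with a median of 0.03. The 9 genes not well above background included Timd4, a receptor gene of long-lived resident cells, Clec4f of Kupffer cells, Gata6 of peritoneal macrophages and P2ry12 and Sall1 of microglia. The genes 2-fold or more lower were F13a1, the gene for coagulation factor XIII, from 87.6 to 25.2 (3.64-fold, and -0.62 on the log2 scale after normexp), and Cbr2, a carbonyl reductase gene, with log2 differences of -0.85 and -1.27 on its probes and a gene mean of -0.76 where it was nearest to 0 over the settings. The other F13a1 probe read 4.93 and 4.68 and was well above background on neither array. None of the list was 2-fold or more higher, and the highest difference was 0.91 for Retnla, the M2 gene for RELM alpha. Mrc1, the gene for CD206, had -0.34, Stab1, a scavenger receptor gene, had 0.41, and Marco had 0.89.

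Genes of blood monocytes lay on both sides of 0. Of 18 genes 16 were measured, 7 higher and 9 lower with a median of -0.09. Ccr2, the receptor that brings monocytes into tissue, had -0.41, Plac8 had -0.74 and Nr4a1, from a spot in a damaged area, had -0.81. The other Plac8 probe read 9.71 and 9.45 and was well above background on neither array. The 2 genes past 2-fold were higher and were both dim, among them Ifitm6 at least 3.07-fold, with 0.64 as its lowest log2 difference over the settings. Of 26 genes that go with the TREM2 state 24 were measured, 13 higher and 11 lower with a median of 0.01 and none past 2-fold. Spp1, the osteopontin gene, had the highest difference, 0.46, and Csf1 the lowest, -0.52, while Apoe had -0.05, Lgals3 had 0.02 and Lpl had -0.06.

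The labelled cell type was read from 15 macrophage genes, of which 14 were on the array and all 14 were measured, 8 higher and 6 lower, with a median of 0.06 and a range from -0.72 for Cd33 to 0.14 for C1qc. Lyve1 and Ly6c1 are also used by cells other than macrophages, so markers of these were read as well. Of 16 endothelial and lymphatic markers 11 were measured, 4 higher and 7 lower with a median of -0.12 and none past 2-fold. Their summed level, in multiples of the 75th percentile of each array, was 12.5 with DMSO and 15.6 with GW4064. Most of it came from Flt1, whose spot lay in a damaged area and read 10979 and 15426. The highest and lowest log2 differences among these markers measured on both arrays were 0.61 for Egfl7 and -0.64 for Esam. Mmrn1, a lymphatic gene measured with DMSO alone as Lyve1 was, read 25.8 and 12.3 and was at least 1.79-fold lower. Pdpn, measured on both arrays, had 0.03 on a probe in a damaged area and -0.28 on the other. The lymphatic genes Prox1 and Flt4 and the endothelial genes Tek and Tie1 were not well above background on either array. T, B and NK cell markers had 5 of 12 measured, 4 of them lower with a median of -0.15, and a summed level of 4.16 and 3.78. Of these Ms4a1, the B cell gene for CD20, was at least 2.47-fold lower (-0.57 on the log2 scale where nearest to 0), and Cd3d, Cd3g and Cd8a were not well above background. Of 14 stromal markers 12 were measured and 11 were lower, with a median of -0.78 and a summed level of 34.4 and 18.4. Bgn, Postn and Acta2 were past 2-fold, but each fell short of it in some settings, with log2 differences of -0.82, -0.98 and -0.99 at the nearest to 0, and at least 1 spot of Acta2 lay in a damaged area. Of 13 neutrophil markers 11 were measured and 8 were lower, with a median of -0.45 and a summed level of 11.98 and 7.58. In these 4 lists more markers were lower than higher, as Lyve1 and Ly6c1 were. Of the other cell types read, dendritic cell markers went the other way, 5 higher and 2 lower with a median of 0.20. Osteoclast markers were mixed, 4 higher and 5 lower with a median of -0.04. The part of any of these cell types in the Lyve1 and Ly6c1 differences was not tested.

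**Figure D4:**
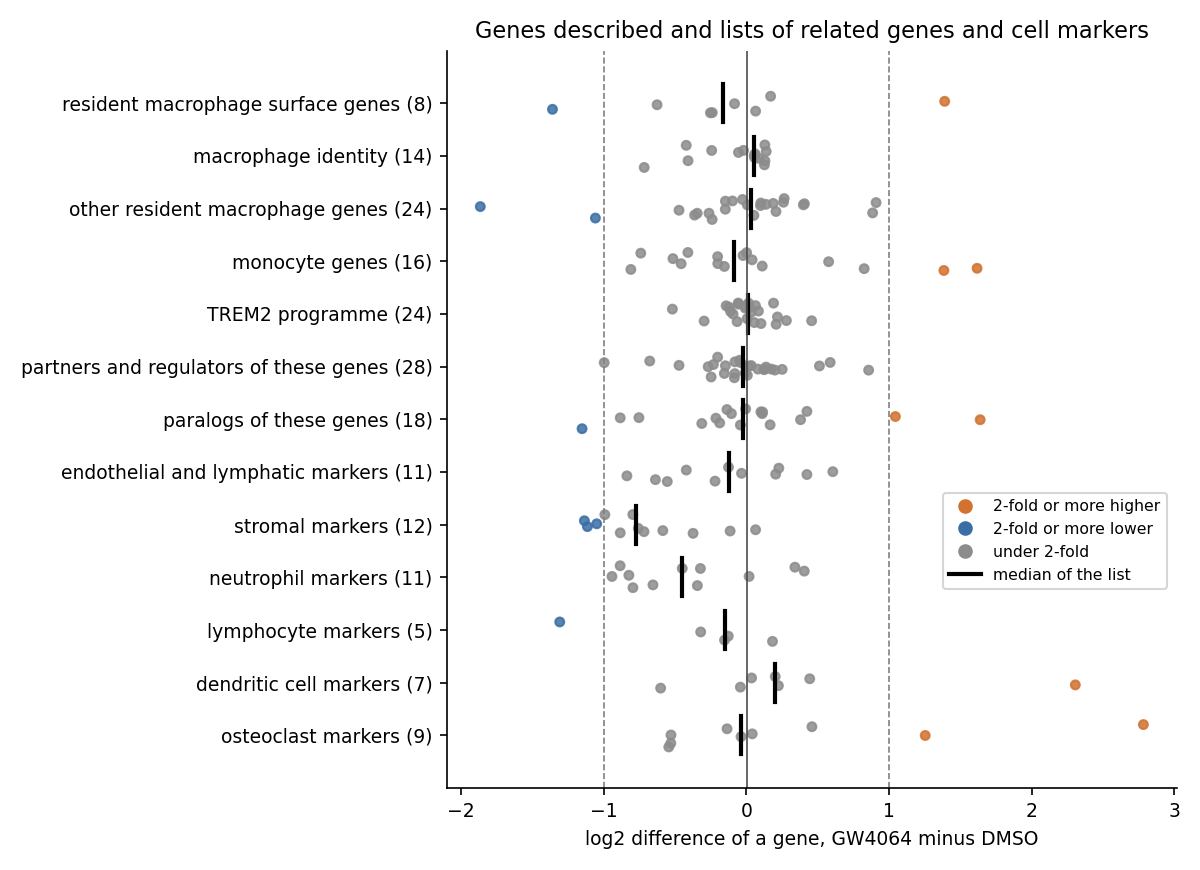
Log2 difference (GW4064 minus DMSO) of each measured gene, with dim genes at their bound, for the genes described and 12 lists of related genes and cell markers (number measured in brackets), a black bar at the median of each list, dashed lines at 2-fold and a thin line at the median of all genes. The medians of the stromal (-0.78) and neutrophil (-0.45) markers lie furthest from 0, and the other medians lie between -0.16 (genes described) and 0.20 (dendritic cell markers).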

How the data were processed

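The authors deposited, per the file headers, the intensity of each spot of both arrays after Feature Extraction 10.7.1.1 had subtracted background and trends, without scaling between arrays, and a log2 table whose differences, once a constant of 0.0022 was taken off, matched those computed here to 0.001 for each of the 39200 probes. The table's column medians were 0.035 and -0.051, and the baseline of each probe is unknown. The methods say that normalized, filtered values went into GeneSpring and do not name the normalization.

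From the intensities, spots marked as non-uniform or as outliers among copies were dropped (215 non-uniform with DMSO and 30 with GW4064), log2 signals were shifted by the 75th percentile of non-control spots, and copies were averaged. Where 1 array did not measure a probe, the array's lowest value with the background mark replaced the probe's own if that was lower, and a bound pointing the other way was set to 0. Probes well above background on neither array were left out. A gene is the mean of its probes. Symbols came from unversioned RefSeq accessions of GRCm38.p6, whereas the array was designed on mm9, so coordinates are not printed. Sequences of probes, promoters and proteins were not used here.

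The rule for names took all 10 genes, any gene among their partners or paralogs, and in each other list the genes past 2-fold plus the highest and lowest difference. Other list genes named beside them, such as Mrc1 and Ccr2, were picked after their values were seen. Some list genes that the rule takes are not reported here. Genes and lists were chosen with earlier results of these data known. Damaged areas are spots with 2 or more other spots within 300 µm that differ 8-fold, so they are named from the differences alone. They held 16.5% of all non-control spots and 2 of the 13 spots of the genes described. A probe printed 10 times was named if any of its spots lay there. No test was made, since a condition had 1 array. The normexp alternative used the median spot intensity. The calculations were tested on simulated data. limma 3.58.1 in R 4.3.3 gave the normexp and quantile values, and Python 3.11.15 with pandas 2.3.3, numpy 2.4.6, statsmodels 0.14.6 and scipy 1.17.1 the rest, drawn with matplotlib 3.10.9.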

Additional observations from a re-analysis of the deposited data

How the results depend on the processing

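No paired analysis was possible because the DMSO and GW4064 conditions hold a single array each, so none could be left out. The settings tried were quantile normalization, median centring, a loess (span 0.3), spike-in centring, normexp (offset 50), the deposited log2 table, keeping marked spots, both-array and no filters, the brightest probe, leaving out damaged areas, and thresholds of 1.5-fold and 4-fold. The number of genes 2-fold or more higher, 1 (Siglec1), became 0 after normexp, with probes well above background on both arrays only, with the brightest probe and at 4-fold. The number lower, 1 (Lyve1), became 0 after normexp, with both arrays required and at 4-fold, and 2 with the brightest probe, without damaged areas and at 1.5-fold, each time with Ly6c1 added. The median of -0.16 became -0.33 with spike-in centring and -0.082 with both arrays required. No gene past 2-fold changed sign. Of all probes 510 were higher and 659 lower. The counts were 112 and 120 after normexp, 178 and 278 with both arrays required, 1637 and 1664 without a filter, 277 and 338 without damaged areas, 1117 and 1317 at 1.5-fold and 118 and 156 at 4-fold. Higher probes were 31.0% of those past 2-fold with spike-in centring and 43.6% in the main setting. Signal over background limits Lyve1 and Siglec1 probe 2 to bounds and leaves Cd163 and Vsig4 without a value.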

Other observations

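Markers of osteoclasts and dendritic cells, which are also grown from marrow, held genes with large differences. Of 10 osteoclast markers 9 were measured, 4 higher and 5 lower. Acp5, the gene for tartrate-resistant acid phosphatase, was higher on both probes, with log2 differences of 1.21 and 1.29. Mmp9, a matrix protease gene, had 2.78, and at least 1 of its 10 spots lay in a damaged area. The fusion genes Dcstamp and Ocstamp had -0.53 each, the integrin gene Itgb3 had -0.54 and Ctsk, the cathepsin K gene, had -0.13. Of 11 dendritic cell markers 7 were measured, 5 higher and 2 lower. Flt3, the receptor of dendritic cell precursors, was at least 4.94-fold higher on 1 probe, from a damaged area of the slide, while its other probe did not pass the background mark with DMSO or GW4064. Zbtb46, a transcription factor of classical dendritic cells, had 0.44, and Ccr7 had -0.60.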
